A study of Saccharomyces cerevisiae with 13 samples.

Results

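Transcript ratios from the first S phase window of a synchronized budding yeast culture, the arrays at 20 and 30 min after release, were compared with those from the first mitosis window, the arrays at 40 and 50 min. These are 4 of the 13 arrays of the time course, and they were chosen by their labelled time alone. The culture was Saccharomyces cerevisiae released into the rich medium YEPD after alpha factor arrest. Alpha factor is the pheromone of the opposite mating type and holds MATa cells in G1. It was sampled every 10 min, nominally through 2 cycles. Total RNA of each time point carried Cy5 and was hybridised together with Cy3-labelled total RNA of an asynchronous culture grown in YEPD, which was the same kind of reference on every array. No source used here gives the strain or its genotype. Each time point has 1 array and no replicate.

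In budding yeast each stage of the cycle has its own wave of transcription. At the G1 to S transition the factors SBF and MBF switch on G1 cyclins, replication enzymes and bud growth genes, and histone genes follow while DNA is copied. Later the forkhead factor Fkh2 with Mcm1 and Ndd1 drives the CLB2 cluster, which carries the mitotic cyclin and the machinery of mitosis and cytokinesis, and its product Swi5 then helps to switch on genes of the M to G1 transition, many of them for cell separation.

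The 2 windows differ in more than cycle position. The titles of the arrays at 20 and 30 min carry one file stamp, also found at 0 and 10 min (set A), and those at 40 and 50 min another, found on all later arrays (set B). The labels do not say what a stamp stands for, so in this contrast array set and cycle position cannot be told apart. Ratios spread more widely in set A: the SD over genes was 0.502 and 0.454 log2 units at 20 and 30 min, against 0.355 and 0.339 at 40 and 50 min. The same contrast placed 60 min later, the arrays at 80 and 90 min against those at 100 and 110 min, lies wholly in set B and is given as the value within one array set. It shares no array with the first contrast. The shift by 60 min is nominal and moves the windows into a later cycle. Between the contrasts, array set and cycle number therefore cannot be told apart. All 8 arrays were in 1 fit, however, so the spread within the later windows also enters the SE and the calls of the first contrast.

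Of 6205 open reading frame (ORF) rows, 6056 had a measured value on all 8 of these arrays and were tested. Values at 100-fold in either direction, where the deposited log10 ratios end, were treated as missing, and they were more frequent in the early window, with 71 of them at 20 and 30 min and 13 at 40 and 50 min. Every value below is a log2 ratio of time point over reference, so 1 unit is 2-fold. That direction is likely rather than stated: at 0 min all 26 genes of a pheromone response list lay above 0, with a median of 2.13. A difference between windows is the mean of the early arrays minus the mean of the late ones, with its SE from limma. Since no time point was repeated, the SE and every p measure the spread between arrays taken 10 min apart, with 2 arrays in each window.

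At an adjusted p under 0.05 (limma, Benjamini-Hochberg over all 6056 genes), 301 genes differed between the windows, 4.97% of those tested. Of these, 169 were higher at 20 and 30 min (2.79%) and 132 were lower (2.18%). Counts of called genes in the lists below stand against these shares of all genes tested. The genes called higher had a median difference of 0.849 (quartiles 0.637 and 1.123), and 61 of them differed at least 2-fold. Those called lower had a median of -0.709 (quartiles -1.094 and -0.597), and 38 reached 2-fold. Across all tested genes the median difference was -0.044, with a positive difference in 43.8% and a negative one in 56.2%.

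The calls rest on a small amount of data, and they also changed with scaling. After quantile normalization, 38 of the 57 called genes named by rule were no longer called. KEL2, RNR1, POL1, RFA1, CDC5, MRH1 and YNL058C were among these, while CLN2, CHS2, HOF1 and MMR1 stayed called. With only the 4 arrays of the 2 windows in the fit, no gene passed (limma, smallest adjusted p 0.0834, with 1666 genes at an unadjusted p under 0.05), and leaving out each of the 8 arrays in turn gave between 8 and 516 calls. Without the 20 min array there were 83, without 30 min 516, without 40 min 9, without 50 min 8, without 80 or 90 min 85 each, and without 100 or 110 min 67 each.

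Among the genes called higher, 145 had their highest ratio of the 4 arrays at 20 min and 24 at 30 min, while 113 were lowest at 50 min. Their median ratio was 0.94 at 20 min, 0.62 at 30 min, -0.05 at 40 min and -0.12 at 50 min. Among those called lower, 106 were lowest at 20 min and 86 highest at 50 min, with median ratios of -0.76, -0.62, 0.08 and 0.20 on the 4 arrays in order of time. In both groups the early arrays lay farther from the asynchronous level than the late ones. In both groups the largest step of the median lay between 30 and 40 min, where the array set changes. Of the genes called higher, 96 of the 169 fell from each array to the next through all 4, and of those called lower 69 of the 132 rose through all 4.

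**Figure D1:**
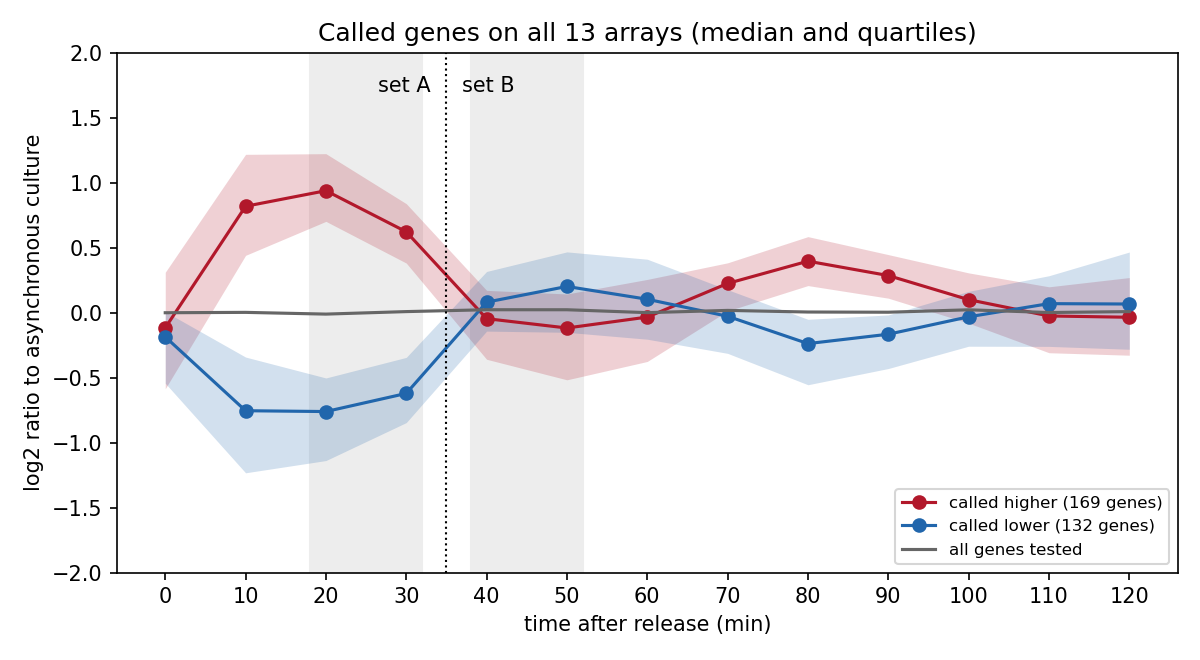
Median log2 ratio to the asynchronous culture (lines) with quartiles (shaded) on the 13 arrays, against time after release in min, for the 169 genes called higher, the 132 called lower and all 6056 genes tested. Grey bands mark the compared windows and the dotted line the change from array set A to set B. The called groups are far apart from 10 to 30 min, meet at 40 min, and part again by less around 80 min.

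Genes that supply DNA building blocks held some of the largest differences. RNR1, the large subunit of ribonucleotide reductase, had log2 ratios of 1.35 at 20 min, -0.10 at 30 min, -1.93 at 40 min and -2.18 at 50 min. It fell at each step and its windows did not overlap, with a difference of 2.68 ± 0.46 (SE; limma adjusted p = 0.0291), which is 6.40-fold. CDC21, the thymidylate synthase, stood at 1.58, 0.93, -0.41 and -0.55 on the same arrays in order. It fell in the same way, by a difference of 1.73 ± 0.22 (limma adjusted p = 0.0223). These were the only called members among the 8 tested genes of nucleotide synthesis (against 4.97% of all genes tested), whose median difference was 0.34. The small subunit genes RNR2 and RNR4 differed by 0.21 and 0.29, neither of them called, and RNR3, the minor large subunit, by 0.78 with an adjusted p of 0.0581.

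Replication genes lay mostly on the early side. Of 32 tested genes of the DNA replication list, 10 were called higher (against 2.79% of all genes tested) and none lower (against 2.18%). The early and late arrays were apart with the early ones above in 28 (against 26.3%), and the median difference was 0.727. The called members form recognisable units of the fork: POL1, POL12 and PRI2 of the polymerase alpha and primase complex, POL2 of polymerase epsilon, all 3 subunits of the single-strand binding protein RPA (RFA1, RFA2 and RFA3), the helicase factor CDC45, the flap nuclease RAD27 and the fork mediator MRC1. Called differences in this list ran from 0.71 for RFA3 to 1.87 for POL1.

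POL1, the catalytic subunit that starts each new strand, had log2 ratios of 1.55 at 20 min, 0.36 at 30 min, -0.60 at 40 min and -1.21 at 50 min. It dropped at every step, with a difference of 1.87 ± 0.37 (limma adjusted p = 0.0345). RFA1 followed the same course from 1.14 and 0.34 to -0.82 and -1.36, a difference of 1.83 ± 0.35 (limma adjusted p = 0.0337). RFA2 went from 1.26 and 0.69 to -0.53 and -0.72, a difference of 1.60 ± 0.23 (limma adjusted p = 0.0267). For both RPA subunits the early arrays lay above 0 and the late ones below it.

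The MCM genes of the replicative helicase and the listed genes of its loading were not called. MCM3 stood at -0.62, -1.17, -1.12 and -0.56 on the arrays from 20 to 50 min, and MCM5 at -0.60, -1.37, -1.05 and -0.31. In both genes the windows overlapped and the lowest array was 30 min, and their differences of -0.06 and -0.30 were not called. CDC6, which loads the helicase onto origins in G1, read -0.80, -0.52, 0.02 and 0.08, with the early arrays below the late ones and an adjusted p of 0.0854. The list that holds these genes covers origin loading and other genes of the M to G1 transition, only some of them driven by the early cell cycle box (ECB). It had a median difference of -0.391. None of its 13 genes was called, against 4.97% of all genes tested, a share that leaves few calls for so short a list. No member had windows apart with the early ones above (against 26.3% of all genes tested).

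POL30, the sliding clamp PCNA, read 1.40, 0.20, 0.08 and -0.21 and was not called (difference 0.86, limma adjusted p = 0.18). The neighbouring row YBR089W, an ORF with no gene name in the table used, was among the largest genes called higher. Its log2 ratios were 1.47 at 20 min, 0.21 at 30 min, -1.39 at 40 min and -1.69 at 50 min, a steady fall with a difference of 2.38 ± 0.38 (limma adjusted p = 0.0277). Whether these neighbouring rows share signal was not tested.

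Start regulators of the cycle were also higher early. Of 16 tested genes of the G1 cyclin and start list, with a median difference of 0.732, none was called lower (against 2.18% of all genes tested). In this list 6 genes were called higher (against 2.79%). They were the G1 cyclins CLN1 and CLN2, the Pho85 cyclin PCL1, the forkhead factor HCM1, the repressor YOX1 and TOS4, a target of SBF. CLN2 had log2 ratios of 0.70 at 20 min, -0.16 at 30 min, -1.34 at 40 min and -1.80 at 50 min. The windows were well apart, by 1.84 ± 0.29 (limma adjusted p = 0.0277). TOS4 read 1.61, 0.57, -0.64 and -1.14, a difference of 1.98 ± 0.38 (limma adjusted p = 0.0335).

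The other called members of this group differed by smaller amounts. PCL1 read 1.10, 0.62, -0.36 and -0.95, a difference of 1.52 ± 0.25 (limma adjusted p = 0.0277). CLN1 read 1.18, 0.67, 0.03 and -0.43, a difference of 1.13 ± 0.25, and HCM1, which acts in S phase, differed by 0.84 ± 0.19 (limma adjusted p = 0.0466 for both). YOX1 differed by 1.24 ± 0.24 (limma adjusted p = 0.0337). All of these had every early array above every late one.

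The S phase cyclins did not pass the test. CLB6 stood at 1.45 at 20 min and at -0.12, -0.37 and -0.50 on the next arrays, so only the first array was high. Its difference of 1.10 ± 0.44 was not called (limma adjusted p = 0.156), and it was 0.316 without the 20 min array. CLB5 was flat at 0.10, 0.16, 0.32 and 0.10, with overlapping windows and a difference of -0.08 that changed sign without the 40 min array. CLN3, the upstream G1 cyclin, read -0.76, -0.56, -0.23 and 0.01, a difference of -0.55 that was not called (limma adjusted p = 0.197).

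Bud growth and cell wall genes made a further early group. Of 28 tested, 6 were called higher (against 2.79% of all genes tested) and none lower (against 2.18%), with a median difference of 0.391. The called genes were the septin-linked kinases GIN4 and HSL1 and the Cdk1 inhibitor kinase SWE1, which together watch over bud formation, and CRH1, CSI2 and AXL2. CRH1, a transglycosylase that ties chitin to glucan, had log2 ratios of 1.57 at 20 min, 0.82 at 30 min, -0.25 at 40 min and -1.06 at 50 min. This is a steady fall with a difference of 1.85 ± 0.34 (limma adjusted p = 0.0332). AXL2, a membrane landmark of axial budding, read 1.14, 0.70, -0.53 and -1.16, a difference of 1.76 ± 0.22 (limma adjusted p = 0.0223), and CSI2 read 1.12, 0.40, -0.84 and -1.26.

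SVS1, another wall gene of this list, was not tested because its 30 min value lay at the upper limit. Its measured ratios were 1.48 at 20 min, -0.58 at 40 min and -1.13 at 50 min. TOS6, a cell wall protein in none of the lists, read 2.39, 1.51, -0.01 and -0.57, the highest 20 min ratio among the 12 largest genes on this side. Its difference was 2.24 ± 0.30 (limma adjusted p = 0.0223).

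The largest called difference on the early side, 2.69 ± 0.52 (limma adjusted p = 0.0336), belonged to KEL2, a kelch-repeat protein that acts in mitotic exit. Its profile was uneven, with log2 ratios of 0.62 at 20 min, 2.30 at 30 min, -1.83 at 40 min and -0.63 at 50 min. The step from highest to lowest fell between the last array of set A and the first of set B.

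**Figure D2:**
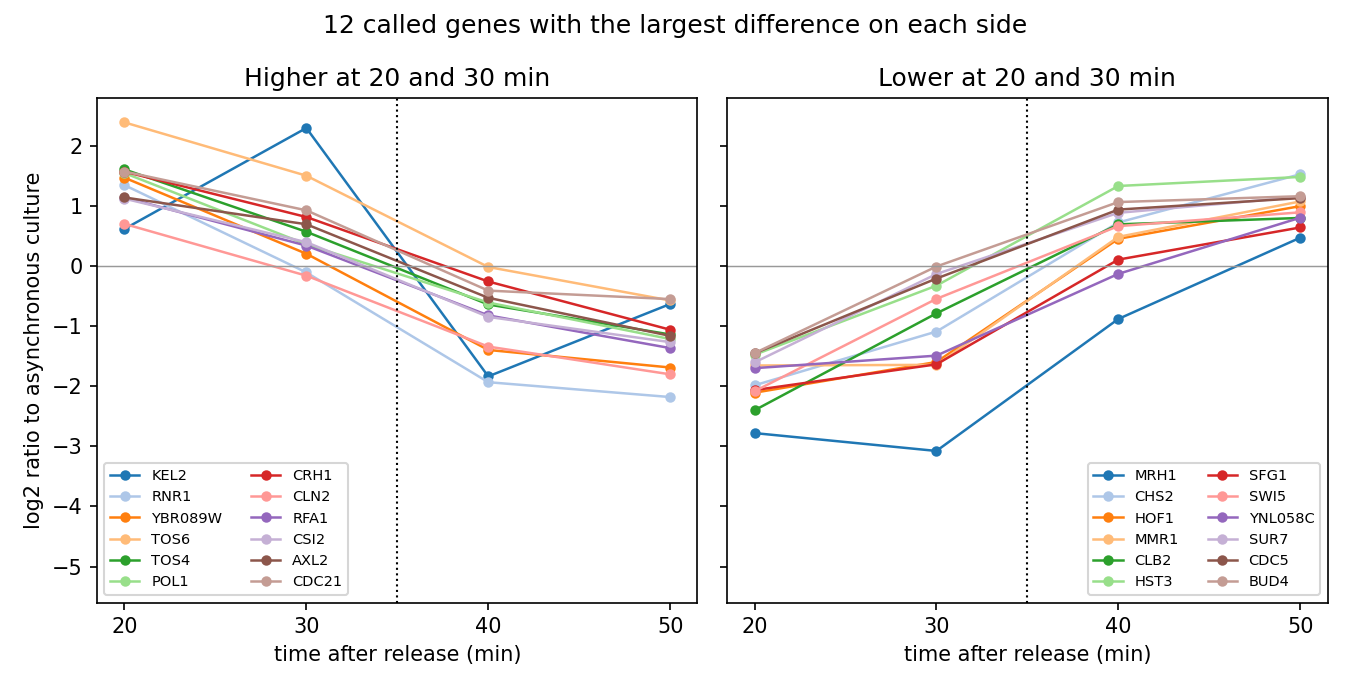
Log2 ratio to the asynchronous culture at 20, 30, 40 and 50 min for the 12 called genes with the largest difference on each side, 1 point per array. The dotted line marks the change of array set. On the left RNR1 runs from 1.35 down to -2.18 and KEL2 peaks at 30 min, and on the right MRH1 lies lowest and CHS2 ends highest at 1.53.

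Chromatid cohesion and DNA repair genes sat with the replication genes. In the cohesion list 3 of 10 genes were called higher (against 2.79% of all genes tested), with a median difference of 0.701. MCD1, the cleavable ring subunit of cohesin, had log2 ratios of 1.19 at 20 min, 0.00 at 30 min, -0.89 at 40 min and -1.23 at 50 min. The first array was far above the rest, and the difference of 1.66 ± 0.35 (limma adjusted p = 0.039) was 1.06 without it. The ring subunit SMC3 differed by 1.38 ± 0.23 (limma adjusted p = 0.0284) and the cohesin regulator PDS5 by 1.26 ± 0.26 (limma adjusted p = 0.0386). In the repair and checkpoint list 4 of 15 were called higher (against 2.79%), with a median of 0.364.

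The called genes of the repair and checkpoint list included the checkpoint kinases RAD53 and DUN1. RAD53 read 0.84, 0.32, -0.59 and -0.48 on the arrays from 20 to 50 min, a difference of 1.11 ± 0.24 (limma adjusted p = 0.0426). Its early arrays lay above 0 and its late ones below. Dun1 acts upstream of ribonucleotide reductase in the damage response, and DUN1 differed by 1.10 ± 0.19 (limma adjusted p = 0.0291).

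Spindle and kinetochore genes were split. Of 40 tested, 3 were called higher (against 2.79% of all genes tested) and 2 lower (against 2.18%), and the median difference was 0.20. On the early side were SPC42, a core protein of the spindle pole body, with 0.29, 0.75, -0.44 and -0.57 and a difference of 1.03 ± 0.20 (limma adjusted p = 0.0341), the DASH ring subunit DUO1 (0.75) and the anaphase inhibitor PDS1 (0.71). On the late side were ASE1, which bundles the microtubules of the anaphase spindle, and the kinetochore subunit NUF2 (-0.65). ASE1 rose from -1.06 and -0.29 to 0.50 and 0.71, a difference of -1.28 ± 0.24 (limma adjusted p = 0.0335). No condensin gene among 4 tested was called (against 4.97% of all genes tested), and their median difference was 0.01. The condensin medians were 0.25, 0.32, 0.41 and 0.24 on the arrays from 20 to 50 min.

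The histone list had the highest median difference of the 23 lists, 1.107. Only 1 of its 10 genes was called (against 4.97% of all genes tested). HHT1, which encodes histone H3, had log2 ratios of 0.52 at 20 min, 0.75 at 30 min, -0.28 at 40 min and -1.02 at 50 min, a difference of 1.28 ± 0.26 (limma adjusted p = 0.0345). After quantile normalization the HHT1 difference was 1.25 and not called (limma adjusted p = 0.0693), and without the 50 min array it was 0.914. HTB1 (H2B) read 0.25, 0.84, -0.18 and -1.47 and HTA1 (H2A) read 0.05, 0.74, -0.17 and -1.27. In 9 of the 10 genes every early array lay above every late one (against 26.3% of all genes tested). The list median was highest at 30 min and lowest at 50 min.

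Histone ratios also differed between neighbouring arrays of a window. The list medians were 0.22 at 20 min, 0.80 at 30 min, -0.05 at 40 min and -1.07 at 50 min, so the step within the late window was larger than the step between 30 and 40 min. HTB1 differed by 1.37 ± 0.40 (limma adjusted p = 0.0834), HTA1 by 1.12 ± 0.38 (0.116) and HHF1 (H4) by 1.32 ± 0.32 (0.0525). Without the 50 min array these differences were 0.72, 0.563 and 0.831. The copies of each core histone gene are near-identical in sequence, and cross-hybridisation between them was not tested. HTZ1, the variant H2A.Z, was the exception, with -0.36, 0.31, 0.39 and 0.12, overlapping windows and a difference of -0.28.

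**Figure D3:**
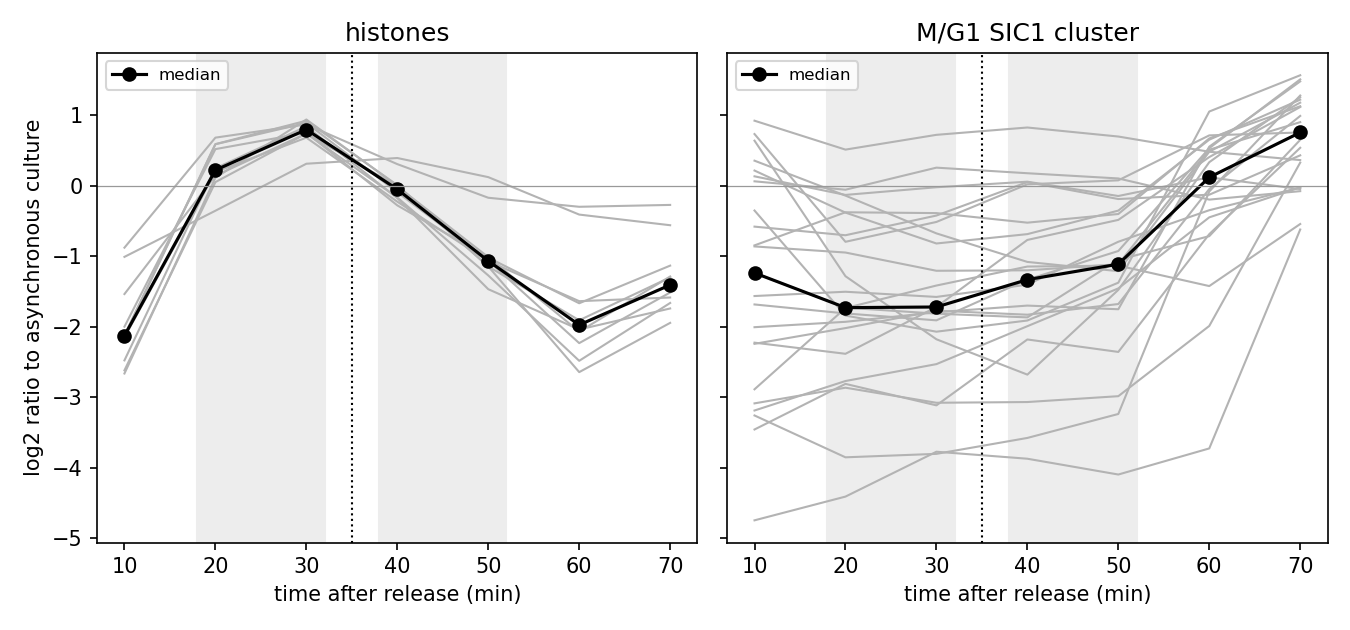
Log2 ratio to the asynchronous culture from 10 to 70 min for each tested gene (grey) of the histone list (10 genes) and of the M/G1 SIC1 cluster list (23 genes), with the list median in black. Grey bands mark the compared windows and the dotted line the change of array set. The histone median peaks at 30 min at 0.80, and the SIC1 cluster median stays below -1 in both windows and rises at 60 and 70 min.

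The late side was led by the CLB2 cluster, the genes of G2 and mitosis. Of 27 tested, 14 were called lower at 20 and 30 min (against 2.18% of all genes tested) and 1 was called higher (against 2.79%). The median difference was -0.974, the lowest of the lists. The list medians were -0.70 at 20 min, -0.32 at 30 min, 0.46 at 40 min and 0.53 at 50 min. The genes called lower included the cyclin CLB2, the polo kinase CDC5, the anaphase activator CDC20, the transcription factor SWI5, the mitotic exit factor MOB1, the kinases ALK1 and KIN3, the deacetylase HST3, and BUD4, MYO1, IQG1, HOF1 and CHS2 for the division site. The 1 gene called higher was YPS1, a cell surface protease, at 0.71.

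CLB2, the main mitotic cyclin, had log2 ratios of -2.40 at 20 min, -0.79 at 30 min, 0.70 at 40 min and 0.80 at 50 min. The late arrays were close together and both above 0, while the early ones were far apart. The difference was -2.34 ± 0.44 (limma adjusted p = 0.0332), and it was -1.54 without the 20 min array. CLB1, its close relative, has no value at 20 min and was not tested, and its ratios of -1.02, 0.78 and 0.66 at 30, 40 and 50 min followed the same order.

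Other regulators in the cluster list were also lower in the early window. SWI5 read -2.08, -0.54, 0.67 and 0.90, a difference of -2.09 ± 0.40 (limma adjusted p = 0.0337). It was -1.33 without the 20 min array. CDC5 read -1.45, -0.21, 0.94 and 1.13, a difference of -1.87 ± 0.38 (limma adjusted p = 0.0368). CDC20, which turns the anaphase-promoting complex on, read -1.16, -1.26, -0.13 and 0.57, a difference of -1.43 ± 0.21 (limma adjusted p = 0.0272).

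Factors that drive the cluster itself did not pass. FKH2 read -0.23, 0.20, 0.70 and 0.57, with the early arrays below the late ones and a difference of -0.65 (limma adjusted p = 0.0786). FKH1 read -0.15, 0.69, 0.88 and 0.51, so the windows overlapped. NDD1 read 0.00, 0.26, 0.20 and -0.28, also with overlap. YHP1, a repressor of ECB genes, stood at -1.27 at 20 min and near or above 0 afterwards (-0.01, 0.54 and 0.17), and its difference of -0.99 was not called (limma adjusted p = 0.126) and was -0.363 without the 20 min array.

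Of the genes of the division site, CHS2 and HOF1 had the largest called differences in the cluster. CHS2, the chitin synthase of the primary septum, had log2 ratios of -1.98 at 20 min, -1.09 at 30 min, 0.73 at 40 min and 1.53 at 50 min. It rose at every step, with a difference of -2.66 ± 0.33 (limma adjusted p = 0.0223), which is 6.34-fold. HOF1, a ring protein that couples contraction to septum growth, read -2.11, -1.59, 0.46 and 1.0, a difference of -2.58 ± 0.24 (limma adjusted p = 0.0111). MYO1, the ring myosin, differed by -1.75 ± 0.21 and its partner IQG1 by -1.50 ± 0.23. BUD4, an axial budding protein at the septin ring, read -1.45, -0.01, 1.07 and 1.17, a difference of -1.84 ± 0.38 (limma adjusted p = 0.0376) that was -1.12 without the 20 min array.

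Several of the largest late genes lie outside the cluster list. MMR1, which carries mitochondria into the bud, had log2 ratios of -1.65 at 20 min, -1.64 at 30 min, 0.49 at 40 min and 1.08 at 50 min. Its windows were tight and far apart, with a difference of -2.43 ± 0.20 and the smallest adjusted p of all genes (limma, 0.00961). SFG1, a putative transcription factor, read -2.06, -1.63, 0.11 and 0.64, a difference of -2.23 ± 0.22 (limma adjusted p = 0.0114). HOF1, MMR1 and SFG1 were the named genes that stayed called in all 8 fits that leave out 1 array.

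The sirtuin gene HST3, which acts on newly placed histone H3, read -1.47, -0.32, 1.34 and 1.49, a difference of -2.31 ± 0.31 (limma adjusted p = 0.0223). MRH1, a plasma membrane protein, read -2.78, -3.08, -0.88 and 0.47, the largest called difference on this side at -2.72 ± 0.51 (limma adjusted p = 0.0332). After quantile normalization the MRH1 difference was -2.03 and not called (limma adjusted p = 0.155). Its 2 late arrays were themselves more than 1 unit apart. SUR7, another plasma membrane protein, read -1.60, -0.13, 0.89 and 1.15, a difference of -1.89 ± 0.43 (limma adjusted p = 0.0466), which was -1.15 without the 20 min array. YNL058C, with no gene name in the table used, differed by -1.93 ± 0.38.

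Genes of the M to G1 transition were low through both windows. In the list of the SIC1 cluster, which holds targets of Swi5, the median ratio was -1.73 at 20 min, -1.72 at 30 min, -1.33 at 40 min and -1.11 at 50 min. Only DSE4 and DSE1, daughter-specific genes of cell separation, were called among 23, both lower in the early window (against 2.18% of all genes tested). DSE4 read -2.38, -1.72, -0.77 and -0.49, a difference of -1.42 ± 0.28 (limma adjusted p = 0.0341). DSE1 read -2.77, -2.53, -1.99 and -1.46, a difference of -0.93 ± 0.22 at the edge of the threshold (limma adjusted p = 0.0498) that was -0.226 after quantile normalization and -0.191 after scaling the arrays to one spread.

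The other members of the SIC1 cluster were not called, though 10 of the 23 genes had every early array below every late one (against 35.3% of all genes tested) and 2 the reverse (against 26.3%). EGT2, a cell wall endoglucanase of daughter cells, stood at -3.85, -3.80, -3.58 and -3.24, and SIC1, the Cdk inhibitor of mitotic exit, at -0.95, -1.21, -1.20 and -1.11. ASH1, a repressor made for daughter cells, stood at -1.84, -2.07, -1.91 and -1.38. EGT2 had its early arrays below its late ones, while the windows of SIC1 and ASH1 overlapped. The differences of -0.42 for EGT2 and -0.31 for ASH1 had the opposite sign after scaling the arrays, at 0.767 and 0.279. SPO12, a small regulator of mitotic exit, was the 1 called gene of 15 in the list of mitotic exit and the anaphase-promoting complex (-1.13 ± 0.23, limma adjusted p = 0.0363). Of all genes tested 4.97% were called, and the median of that list was -0.221.

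Growth genes differed in one direction by small amounts. Of 42 ribosome biogenesis genes, all 42 had a negative difference (against 56.2% of all genes tested). In 39 every early array lay below every late one (against 35.3%), and 4 were called lower (against 2.18%). The list median was -0.37. NSR1, the yeast nucleolin, read -1.09, -0.93, -0.06 and -0.31, a difference of -0.82 ± 0.14 (limma adjusted p = 0.0291). UTP4 and UTP10 of the small subunit processome differed by -0.69 and -0.49, and the large subunit factor BRX1 by -0.49. UTP4 was -0.437 and UTP10 -0.32 after quantile normalization.

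The stress response list and the methionine and sulfate list had medians above 0. In the stress response list 4 of 24 genes were called higher (against 2.79% of all genes tested), with a median of 0.248. They were the small heat shock proteins HSP26 (0.93) and HSP42 (0.67), the trehalose synthase TPS1 and the aldose reductase GRE3 (0.78). HSP26 read 1.18, 0.64, 0.07 and -0.10, with every early array above every late one. The HSP42 difference was 0.354 after quantile normalization. Among 18 methionine and sulfate genes, 14 had the early arrays above the late ones (against 26.3% of all genes tested) and none below (against 35.3%). Their median was 0.327, but only the sulfate permease SUL1 was called (against 4.97% of all genes tested). SUL1 read 0.65, 0.83, -0.03 and -0.01, a difference of 0.76 ± 0.16 (limma adjusted p = 0.0396). After quantile normalization the SUL1 difference was 0.648 and not called (limma adjusted p = 0.124).

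At the cell surface, 3 of 23 plasma membrane and uptake genes were called lower (against 2.18% of all genes tested). PMA1, the proton pump of the plasma membrane, read -1.05, -0.47, 0.39 and 0.36, a difference of -1.13 ± 0.22 (limma adjusted p = 0.0335). PMA2, a close copy, differed by -1.10 ± 0.22, and whether the 2 rows share signal was not tested. The glucose transporter HXT1 read -1.48, -0.74, -0.16 and 0.11, a difference of -1.08 ± 0.25 (limma adjusted p = 0.0466) that was -0.719 without the 20 min array. In the endoplasmic reticulum list 2 of 13 were called higher (against 2.79%), the disulfide isomerase EUG1 (0.92) and the chaperone partner JEM1 (0.90). The lists of phosphate (15 genes), glycolysis (19), MATa-specific (7) and MATalpha-specific genes (4) had no call, with medians between -0.164 and 0.015. Of all genes tested 4.97% were called, and at that share lists of this size would hold few or no calls.

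Mating genes differed little as a group. Of 25 tested pheromone response genes, 1 was called (against 4.97% of all genes tested). It was SCW10, a cell wall protein of the glucanase family needed in mating, with 1.21, 0.87, -0.07 and -0.63 and a difference of 1.39 ± 0.26 (limma adjusted p = 0.0332). The list median difference was 0.056. Of the 5 markers of MATa cells, the median was -1.90 at 20 min, -1.99 at 30 min, -1.66 at 40 min and -0.76 at 50 min. The 4 MATalpha markers had medians between -0.172 and 0.03 and the 6 meiosis markers between -0.25 and -0.022. Ratios to a yeast culture do not give levels, so the presence of other cell types cannot be read from them.

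In the windows placed 60 min later, all in array set B, the contrast had the same direction for most called genes but a smaller size. These windows differ from the first ones in cycle number as well as in array set. What the smaller size comes from was not tested. Of the 169 genes called higher, 135 had a positive difference between the arrays at 80 and 90 min and those at 100 and 110 min, which is 79.9%, against 44.7% of all genes tested. In 106 of them (62.7%, against 17.0% of all) the windows were apart in the same direction, and in 7 in the opposite one. Of the 132 called lower, 107 were again negative (81.1%, against 55.2%). In 77 the windows were apart that way (58.3%, against 22.0%), and in 10 the opposite way. The calls rest in part on the spread within these later windows, so the shares with windows apart are not an independent check.

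The second differences were smaller. Their median was 0.252 for the genes called higher and -0.189 for those called lower, and 168 of the 169 and all 132 were larger in size in the first cycle. The genes were called on the first contrast, which by itself favours large values there. Over all 6056 genes the SD of the differences was 0.373 in the first cycle and 0.241 in the second, and Pearson's r between the contrasts across genes was 0.45, where genes share the arrays and are not independent replicates.

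No gene passed the test in the second contrast (0% called by limma), where 580 genes had an unadjusted p under 0.05, 4.99% of all on the higher side and 4.57% on the lower. Of the called genes, 54 of the 169 and 34 of the 132 were among these with the same direction. None passed in the test of the difference between the contrasts either (0% called by limma, 10.8% at an unadjusted p under 0.05). RNR1 differed by 1.36 in the second cycle, against 2.68 in the first. CLB2 differed by -1.01, CHS2 by -1.44 and CLN2 by 0.95, each with the sign of the first cycle. HSL1 differed by about as much in both cycles, 1.42 in the first and 1.43 in the second. HSP26 (-0.05), HSP42 (0.01) and YNL058C (-0.07) lay near 0 in the second.

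**Figure D4:**
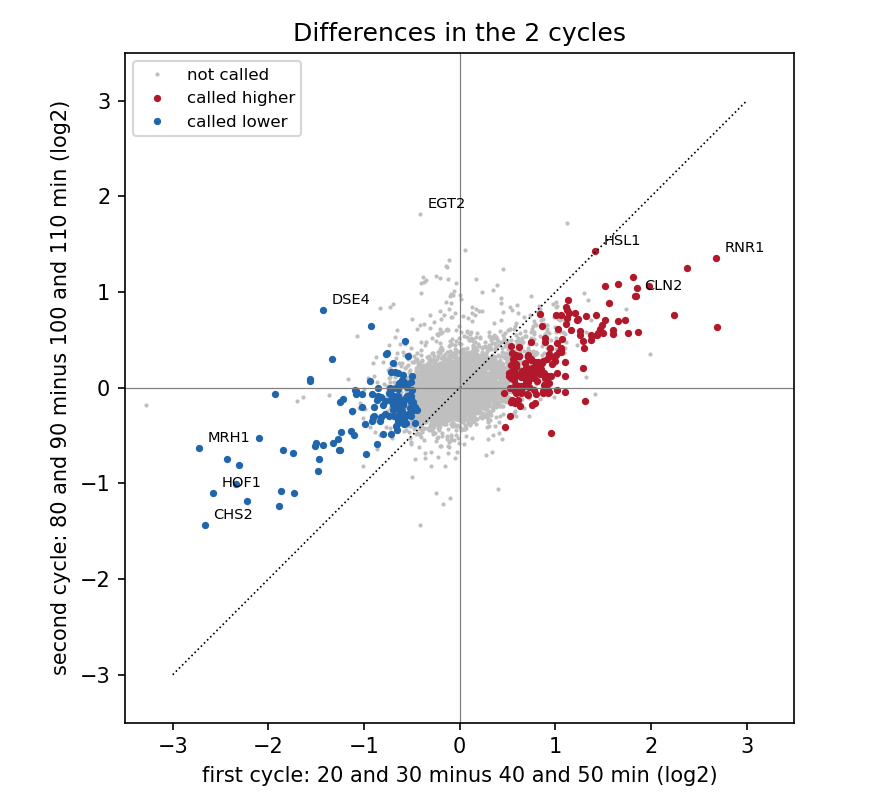
Difference between windows in the second cycle (80 and 90 minus 100 and 110 min) against that in the first (20 and 30 minus 40 and 50 min), in log2 units, 1 point for each of the 6056 genes. Red points were called higher and blue points called lower in the first cycle, and the dotted line marks equal differences. Called points lie mostly in the quadrants of equal sign and nearer to 0 on the second axis, with DSE4 among the exceptions.

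By list, the main cell cycle groups had medians of the same sign in both cycles. The second medians were 0.485 for histones, 0.579 for G1 cyclins and start, 0.335 for DNA replication, 0.411 for cohesion, 0.425 for budding and cell wall and -0.483 for the CLB2 cluster. Over all genes the second median was -0.022. The SIC1 cluster and the methionine and sulfate list had medians of opposite sign in the 2 cycles. So had the phosphate (0.015 and -0.195), MATa-specific (-0.164 and 0.037) and MATalpha-specific lists (-0.078 and 0.103). In these last lists the array medians of the windows overlapped in the first cycle.

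**Figure D5:**
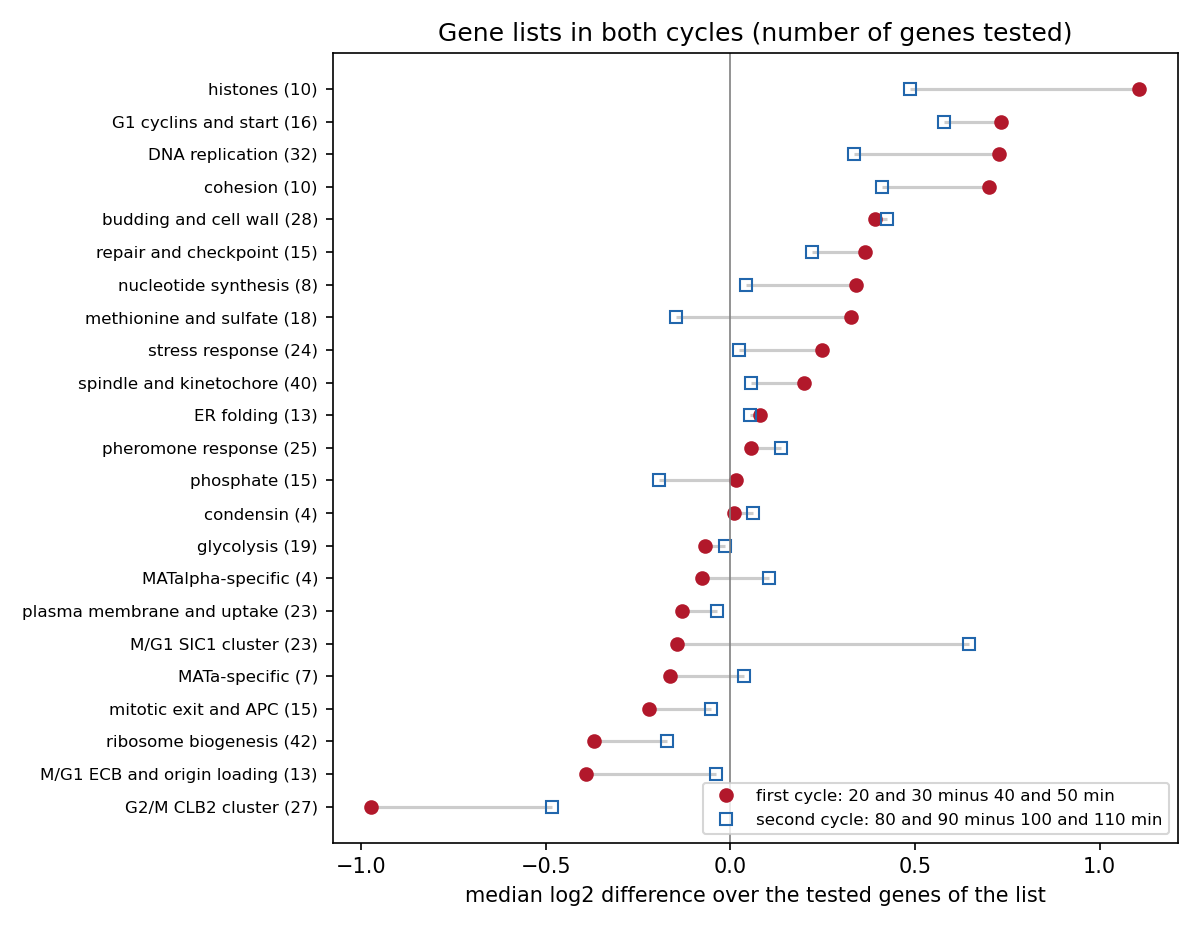
Median log2 difference between windows over the tested genes of each of 23 gene lists, in the first cycle (filled circles) and in the second (open squares), with the number of genes tested in brackets. Histones have the highest first median at 1.107 and the CLB2 cluster the lowest at -0.974, and the SIC1 cluster is the list whose second median, 0.645, is highest.

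Some technical rows moved with the contrast too. The control row named empty read 6.56 and 6.64 log2 units at 20 and 30 min, against -1.87 and 0.63 at 40 and 50 min, and the row whose name is blank in angle brackets read 6.58 and 6.64, against -3.57 and 0.47. The Phi174 control read 3.34, 1.51, 0.51 and 0.59, while 5 of the 12 control rows stayed within 0.12 of 0 on these arrays. In the E. coli, Human and Lambda controls the windows overlapped, and the Yeast control lay slightly lower in the early one. The row named empty also read 4.88 at 60 min, in set B. The files give no intensities, and the part of these shifts in the gene results was not tested. The largest difference of any tested gene, -3.28 for the unnamed ORF YDR491C (named after its values were seen), came from ratios of -2.07, -5.46, -0.62 and -0.34 and was not called (limma adjusted p = 0.0674).

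Near the threshold, the largest adjusted p among called genes was 0.0498 and the smallest among the others 0.0504, and the smallest called difference was 0.451 in size. In all 301 called genes the windows did not overlap, which holds for 1591 genes with the early arrays higher and 2135 with them lower over the whole table.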

How the data were processed

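Each sample was 1 two-colour array, 13 in all, with Cy5 for the time point and Cy3 for an asynchronous culture, per the labels. The deposited files hold 1 log10 ratio for each feature on an array. The base was read from the values, which end exactly at 2 and -2, and no source used here gives the background correction, normalization or spot averaging. Depth does not apply to arrays, and the number of arrays limits the precision.

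Values were multiplied by 3.32 to give log2 ratios, and those of size 1.99 or more on the log10 scale were set to missing. Of the 6205 ORF rows, 5703 took a gene name from RefSeq's table for assembly R64 and 502 keep their ID. Tests used rows with a value on all 8 arrays of the 4 windows, which left out 149 rows, 68 for a missing value and 81 for a value at the limit alone. The 12 control rows stayed out.

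Window means were compared with limma 3.58.1 in R 4.3.3 (lmFit, eBayes, 4 residual degrees of freedom and 4.31 prior degrees of freedom), with Benjamini-Hochberg adjustment over 6056 genes and a threshold of 0.05. No covariate was used, since array set follows the windows. On simulated data for the first contrast, with 6056 genes, 82 of 100 genes changed by 1 log2 unit were recovered. Of 100 changed by 2 units 99 were recovered, with 13 false calls. These counts describe the simulated data only, and whether they carry over to the measured arrays was not tested. The measured SD over genes was 0.502 at 20 min and 0.454 at 30 min, against 0.355 at 40 min and 0.339 at 50 min. Lists were summarised by counts and medians, with no set test.

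Genes named by rule were the 12 largest called on each side, the 3 largest called members of a list or all where fewer, and 30 cell cycle genes whatever their result. Some genes that the rule names are not reported here. Other genes named in the text were chosen after their values were seen. Members, lists and tests were chosen with earlier results of these data known. Alternatives were the arrays in the fit, the limits, 3 normalizations, the shrinkage, a filter, a fold rule, each array left out, and second-cycle windows moved by 10 min. Summaries used Python 3.11.15, NumPy 2.4.6 and pandas 2.3.3, and plots matplotlib 3.10.9.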

Additional observations from a re-analysis of the deposited data

Results flagged for a closer look

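Control rows stood far from 0 at 30 min, in data outside the gene comparison. The row whose name is blank in angle brackets, the row named empty and the Lambda control each read 6.64 log2 units there, the upper end of the scale, and the Phi174 control read 1.51. On the 40 and 50 min arrays the same rows lay between -3.57 and 0.76. High values were not confined to the 30 min array, since the row blank in angle brackets also read 6.61 at 0 min and 6.56 at 60 min.

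Genes of the M/G1 SIC1 cluster had window differences of opposite sign in the 2 cycles. The list median was -0.145 in the first cycle and 0.645 in the second, and the difference between the medians was not tested. DSE4 differed by -1.42 in the first cycle and 0.81 in the second, DSE1 by -0.93 and 0.65, and EGT2 by -0.42 and 1.81, each with windows apart in both cycles. The difference between the cycles did not pass the test for any of them (limma, adjusted p = 0.233 for DSE4 and DSE1). Among the 6056 genes, 349 had windows apart in opposite directions in the 2 cycles.

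The methionine and sulfate list had a median of 0.327 in the first cycle and -0.148 in the second, a difference that was not tested.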

How the results depend on the processing

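The count of 301 genes called in the first contrast changed with most settings. It was 0 with only the 4 arrays compared, 2 with all 13 arrays in neighbouring pairs, 3 with no shrinkage, 24 with values at the limits kept, 64 after quantile normalization (64.1% of them higher, against 56.1%), 122 with arrays scaled to one median absolute deviation, and 140 by non-overlapping windows at least 2-fold apart with no test. It ranged from 8 to 516 with 1 array left out. It was 290 with arrays centred on their medians, 292 with robust shrinkage and 296 with values required on all 13 arrays. Of these, 272, 284 and 290 were among the 301. None of the 3 genes called with no shrinkage was among them. With limits kept 21 of the 24 were, after quantile normalization 63 of the 64, and with scaled arrays 119 of the 122. The genes called also changed in part with 1 array left out. The cause of these changes was not tested. The second contrast had 0 calls, 1 to 5 with 1 of its arrays left out and 36 by the 2-fold rule. The difference between contrasts had 0, 1 with limits kept and 0 to 18 with 1 array left out. Among named genes not called, the sign changed for CLB5 (0.034 without 40 min, -0.186 to 0.034 over arrays left out), NDD1 (-0.072 without 50 min, up to 0.408), SIC1 (-0.05 without 20 min, up to 0.209), ASH1 (0.182 quantile, 0.279 scaled), EGT2 (0.767 scaled), MCM3 (0.207 quantile, 0.219 scaled, 0.215 without 30 min, 0.22 without 50 min, down to -0.337) and MCM5 (0.083 without 30 min, 0.067 without 50 min, down to -0.691). Of 30 list medians, 24 moved by more than their spread in at least 1 alternative. No paired analysis was possible because the labels carry no replicate numbers and each time point has 1 array.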

Other observations

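Further gene groups were counted outside the lists used above. The lists in this paragraph and the next were put together after the values were seen, so their counts describe and support nothing. Of 45 tested genes for glycosylphosphatidylinositol anchors and protein glycosylation, 8 were called higher at 20 and 30 min (against 2.79% of all genes tested). None was called lower (against 2.18%), and the median difference was 0.194. Those called higher include the mannosyltransferases PMT1, PMT2 and PMT5, the mannose donor enzyme DPM1 and the anchor enzymes GWT1, MCD4 and GPI16. ALG14, an early enzyme of N-glycan assembly, read 1.43, 0.67, -0.51 and -0.70 on the arrays from 20 to 50 min, a difference of 1.66 ± 0.26 (limma adjusted p = 0.0273). Of 18 phospholipid synthesis genes, 4 were called higher (against 2.79% of all genes tested). Among them was the methyltransferase OPI3, with 1.33, 0.87, -0.25 and -0.17 and a difference of 1.31 ± 0.20 (limma adjusted p = 0.0272). INO1, the inositol phosphate synthase, was another, with a difference of 0.93.

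Of 20 citric acid cycle genes, 4 were called higher (CIT1, SDH4, FUM1 and MDH1, against 2.79% of all genes tested). In 15 every early array lay above every late one (against 26.3%), and the median was 0.275. The citrate synthase gene CIT1 read 2.19, 1.85, 0.95 and 0.97. Of 38 amino acid synthesis genes, ARG1, ARG56, HIS4 and LYS1 were called higher (against 2.79% of all genes tested). ARG1 differed by 0.96 in the first cycle and by -0.47 in the second. Of 13 eisosome and membrane compartment genes, SUR7, NCE102 and MRH1 were called lower (against 2.18% of all genes tested). The list median of -0.042 was close to that of all genes, -0.044. Of 138 cytosolic ribosomal protein genes 3 were called lower, a share close to the 2.18% of all genes tested, with a median of -0.127. The cytokinesis list had 4 of 19 called lower (against 2.18%) and BNI5, a septin-binding protein, called higher (against 2.79%).

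Among called genes in no list, named here after their values were seen, were the histone chaperone gene ASF1 (1.56), the repair scaffold RTT107 (1.42), the nucleoside diphosphate kinase YNK1 (1.44) and the ribonuclease H2 genes RNH201 (0.79) and RNH202 (0.91) on the early side. On the late side were the iron uptake mannoprotein FIT2 (-1.57), PRM7 (-1.56) and the nuclear envelope protein SRC1 (-1.32). Of the 169 genes called higher, 18 had a chromosomal neighbour called the same way (10.7%), and 5.35% of all tested genes had a neighbour called higher. Of the 132 called lower, 17 had one (12.9%), against 4.34%. Shared signal between neighbouring rows was not tested.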
